A study of Mus musculus with 6 samples.

Results

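The 10 genes described here encode growth factors and growth factor-like secreted proteins that macrophages can make: Igf1, Pdgfa, Pdgfb, Pdgfc, Vegfa, Vegfb, Hgf, Hbegf, Bmp2 and Tgfbi. They were taken by gene symbol from a table of 50600 genes, each symbol occurred once, and all 10 were among the 12152 genes with enough counts to be tested. The cells were macrophages of the pancreatic islets and of the epididymal white adipose depot (EpiWAT), called fat below, of untreated C57BL/6J male mice aged 12 weeks and fed a chow diet. The sort took living cells (negative for the dye DAPI) that stained for CD45, F4/80 and CD64, so monocytes or other cells that carry these proteins would also pass. RNA-seq libraries were made from 10 ng of total RNA, 3 per tissue, numbered 2, 4 and 6 in both tissues, and the design calls the tissues autologous, so that the same number was taken to mean the same animal. The sources used here do not say whether a library holds 1 mouse or a pool, so p-values measure the spread between these libraries.

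Tissue macrophages support their surroundings partly through secreted factors. PDGF chains act on fibroblasts and pericytes, VEGF proteins on endothelial cells, and IGF-1, HGF and HB-EGF on receptor tyrosine kinases of many cell types, while BMP-2 belongs to the TGF-β superfamily. Many of these proteins depend on further steps after translation: HB-EGF is shed from the membrane, HGF and PDGF-C are cleaved by proteases, and IGF-1 is held by binding proteins.

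Total counts were 4089980 to 9235591 per library. The sorted markers Ptprc (CD45), Adgre1 (F4/80) and Fcgr1 (CD64) were present in all 6 libraries, at 417 to 963, 459 to 1066 and 53.1 to 106 CPM (read counts scaled to a common library size with TMM factors). Libraries correlated more closely within fat (r across genes 0.951 to 0.961) than within islets (0.807 to 0.875). Islet library 6 stood apart from the other islet libraries in stress genes: the immediate early and heat shock list took 10.3% and 11.3% of counts in islet libraries 2 and 4, 1.05% in islet library 6 and 2.52% to 2.98% in fat. Its 9 heat shock genes summed to 115800, 122100 and 7613 CPM in islet libraries 2, 4 and 6 and to 2343 to 2892 CPM in fat, so that islet library 6 was below the other islet libraries and above fat. Hspa1b, a heat-inducible chaperone with a near-identical copy, Hspa1a, reached 32630, 50150 and 1406 CPM in islet libraries 2, 4 and 6 against at most 49.8 CPM in fat. Hspa1a itself reached 21920, 37870 and 823 CPM and the constitutive chaperone Hspa8 23320, 14350 and 2249 CPM in the same libraries, and reads may be split between the copies.

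Of the 10 genes, 3 were higher in islet than in fat macrophages (Pdgfa, Pdgfb and Hgf), 4 were lower (Igf1, Pdgfc, Hbegf and Bmp2) and 3 were not called (Vegfa, Vegfb and Tgfbi), by edgeR's quasi-likelihood test at an adjusted p of 0.05. Over all genes tested, 19.4% were called, 8.97% as higher and 10.5% as lower in islets. The median difference of the 10 genes was 0.85 on the log2 scale, against 0.006 over all genes tested. It falls between Vegfb and Tgfbi, which were not called, with called genes far to both sides, so it shows no common shift. In 4 genes (Pdgfa, Pdgfb, Vegfb and Hgf) every islet library was above every fat library, a pattern shown by 18.2% of all genes tested, and in 4 genes (Igf1, Pdgfc, Hbegf and Bmp2) every islet library was below every fat library, as in 22.3% of all genes tested. In bulk samples such as these, fewer cells of a type and less RNA per cell cannot be told apart.

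**Figure D1:**
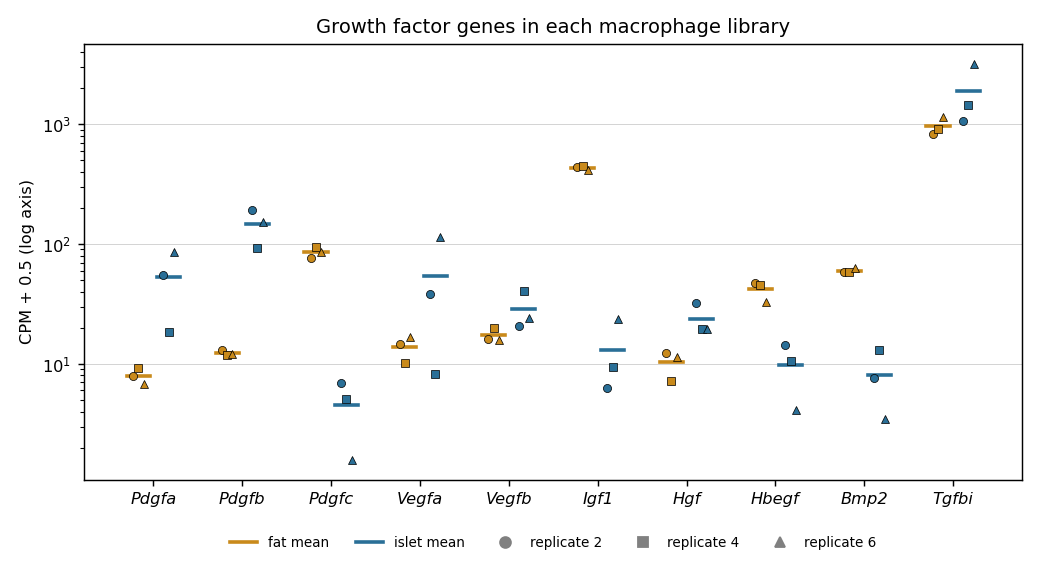
CPM plus 0.5 of each of the 10 genes in every library on a log axis, with fat and islet macrophages side by side, marker shapes for libraries 2, 4 and 6 and bars for means. Igf1, Pdgfc, Hbegf and Bmp2 sit lower in all 3 islet libraries, Pdgfa, Pdgfb, Vegfb and Hgf sit higher, and Vegfa and Tgfbi overlap between tissues.

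The PDGF family differed in opposite directions between its members. Pdgfb encodes the B chain, which as a BB dimer binds both PDGF receptors and recruits pericytes to vessels. It was at 12.5, 11.4 and 11.6 CPM in fat libraries 2, 4 and 6 and at 191, 91.2 and 153 CPM in islet libraries 2, 4 and 6. The lowest islet library was far above the highest fat library. The difference was 3.61 ± 0.33 (SE) on the log2 scale, 12.2-fold higher in islets (edgeR adjusted p = 2.26e-04, n = 3 per tissue). Pdgfb (chr15:79995874-80014977, minus strand, GRCm38) had between 86 and 132 counts per fat library.

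Pdgfa encodes the A chain, a ligand of PDGF receptor α. It stood at 7.47, 8.76 and 6.23 CPM in the fat libraries and at 54.6, 18.1 and 85.7 CPM in the islet libraries. All islet libraries exceeded the fat libraries, although islet library 4 was well below the other two. The gene was 7.08-fold higher in islets, with a log2 difference of 2.82 ± 0.52 (SE) and an edgeR adjusted p of 0.00644. The gene lies on the minus strand at chr5:138976014-138997370 (GRCm38), and 26.07% of its merged exon length is covered by exons of 6330403L08Rik on the other strand. That neighbour was also higher in islets, by 1.62 ± 0.42 (SE) on the log2 scale (edgeR adjusted p = 0.0268). The sources used here do not give the strand setting of the counting, and the part of the neighbour's reads in the count of Pdgfa was not tested.

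Pdgfc encodes a chain secreted with a CUB domain that proteases must remove before it binds receptor α. Its level was 76.3, 93.8 and 85.5 CPM in the fat libraries and 6.45, 4.59 and 1.08 CPM in the islet libraries. The tissues did not overlap, and the islet values rested on 32, 16 and 8 counts. Pdgfc was 21.8-fold lower in islets, with a log2 difference of -4.45 ± 0.54 (SE) and an edgeR adjusted p of 9.75e-04. Without islet library 2 the log2 difference was -5.07 (adjusted p = 0.00321). The gene spans chr3:81036416-81214040 on the plus strand (GRCm38).

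Because these chains moved in opposite directions, their proportions were compared within each library after dividing CPM by merged exon length. Pdgfc made up 73.5%, 76.9% and 77.8% of the summed PDGF level per kilobase in fat libraries 2, 4 and 6. In islet libraries 2, 4 and 6 it made up 1.96%, 3.15% and 0.329%. Pdgfb took the first place in islets, with 71.0%, 76.6% and 57.0%, against 14.7%, 11.4% and 12.96% in fat. Pdgfa accounted for 27.0%, 20.2% and 42.6% in islets and for 11.7%, 11.7% and 9.25% in fat. The ratio of Pdgfb to Pdgfc per kilobase was thus 0.149 to 0.2 in fat and 24.3 to 174 in islets, values that restate the differences of the single genes and carry no test of their own.

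**Figure D2:**
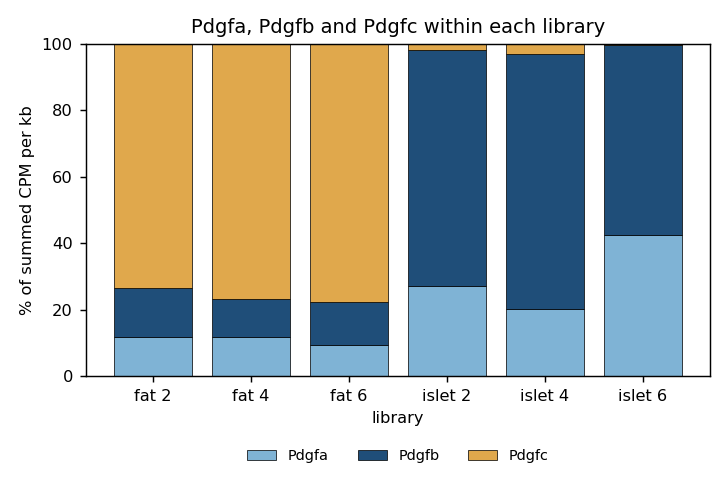
Share of Pdgfa, Pdgfb and Pdgfc in their summed level (CPM per kilobase of merged exons, percent) in each of the 6 libraries, as stacked bars from 0 to 100. Pdgfc fills 73.5% to 77.8% of each fat bar and at most 3.15% of each islet bar, where Pdgfb fills 57.0% to 76.6%.

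Vegfa, the main angiogenic ligand of VEGF receptor 2, varied more between islet libraries than any other of the 10 genes. It was at 14.1, 9.69 and 16.1 CPM in the fat libraries and at 37.5, 7.74 and 115 CPM in the islet libraries. Islet library 4 lay below all fat libraries while islet library 6 lay far above them. The fitted log2 difference was 2.01 ± 0.76 (SE; 95% interval 0.29 to 3.73, not adjusted for multiple tests) and was not called (edgeR adjusted p = 0.101). Without islet library 6 the log2 difference was 0.78 (edgeR adjusted p = 0.328). The gene passed without islet library 4 (edgeR adjusted p = 0.00822), with DESeq2 (adjusted p = 0.0384) and with no filter on low counts (edgeR adjusted p = 1.54e-06). That unfiltered fit gave much smaller adjusted p values for other members too, such as 1.13e-36 for Igf1 against 4.00e-04 with the filter. Without islet libraries 2 and 4 the log2 difference was 3.02, a value that rests on islet library 6 as the lone islet library. Vegfa lies at chr17:46016993-46032369 on the minus strand (GRCm38).

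Vegfb encodes a ligand of VEGF receptor 1 that has been linked to fatty acid handling in vessels. It was measured at 15.7, 19.5 and 15.4 CPM in fat and at 20.4, 40.1 and 23.7 CPM in islets. Every islet value was above every fat value, with islet library 4 highest. The log2 difference of 0.73 ± 0.34 (SE; 95% interval -0.03 to 1.49) was not called (edgeR adjusted p = 0.172). The ratio of Vegfa to Vegfb per kilobase was 0.336, 0.186 and 0.392 in the fat libraries and 0.690, 0.0722 and 1.81 in the islet libraries, so that the islet libraries spread to both sides of fat. Vegfb is at chr19:6982473-6987651 on the minus strand (GRCm38).

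Igf1, an insulin-like hormone that acts on growth and survival through the IGF-1 receptor, was much lower in islet than in fat macrophages. Its level was 435, 444 and 414 CPM in the fat libraries and 5.85, 8.89 and 23.2 CPM in the islet libraries. The fat libraries lay close together (coefficient of variation 3.57%), whereas the islet libraries differed among themselves by up to 3.96-fold and islet library 6 was highest. Igf1 was 33.4-fold lower in islet macrophages, with a log2 difference of -5.06 ± 0.52 (SE) and an edgeR adjusted p of 4.00e-04. Without islet library 6 the log2 difference was -5.90. The islet values rested on 29, 31 and 172 counts. The gene spans chr10:87858265-87937042 on the plus strand (GRCm38).

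Hgf encodes hepatocyte growth factor, the ligand of the receptor Met and a mitogen for epithelial cells that include beta cells. It was at 11.7, 6.63 and 10.9 CPM in fat and at 31.4, 19.2 and 18.9 CPM in islets. The islet libraries were all above the fat libraries, by a small margin. Hgf was 2.37-fold higher in islets, with a log2 difference of 1.24 ± 0.38 (SE) and an edgeR adjusted p of 0.0493, just under the threshold. The call was lost with the replicate block (adjusted p = 0.0605), with other scalings or gene sets (adjusted p = 0.0506 to 0.0579), and without fat library 2, 4 or 6, islet library 2, or islet libraries 2 and 4 (adjusted p = 0.125, 0.207, 0.127, 0.152 and 0.104). Hgf is at chr5:16553495-16620152 on the plus strand (GRCm38).

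Hbegf encodes a membrane-anchored EGF receptor ligand that becomes soluble when a protease sheds it. Its level was 46.4, 45.1 and 32.4 CPM in fat and 13.9, 10.0 and 3.64 CPM in islets. The tissues did not overlap, and library 6 was lowest in both. Hbegf was 4.55-fold lower in islets, with a log2 difference of -2.18 ± 0.47 (SE) and an edgeR adjusted p of 0.0123. Without fat library 2 or fat library 4 the adjusted p was 0.0600 and 0.0501. Hbegf is known as an early-response gene. Of 13 listed immediate early genes 9 were lower in islets, as were 10.5% of all genes tested, and 4 were not called. Fos was among the lower ones (3083, 3241 and 3587 CPM in fat against 285, 341 and 151 CPM in islets). Jun, Atf3, Nr4a1 and Egr1 were not called (adjusted p = 0.875, 0.825, 0.379 and 0.0522), and Jun in islet library 4 (4864 CPM) and Atf3 in islet library 2 (1506 CPM) were above every fat library. The part of this difference in that of Hbegf was not tested.

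Bmp2 encodes bone morphogenetic protein 2, which signals through BMP receptors and SMAD proteins. It was at 57.5, 57.6 and 62.3 CPM in the fat libraries and at 7.06, 12.6 and 2.96 CPM in the islet libraries. Fat values hardly varied and the islet values were all much lower. Bmp2 was 8.09-fold lower in islets, with a log2 difference of -3.02 ± 0.47 (SE) and an edgeR adjusted p of 0.00288. The gene lies at chr2:133552159-133562885 on the plus strand (GRCm38).

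Tgfbi encodes a secreted matrix protein named for its induction by TGF-β, which binds integrins and collagens. It was the most abundant of the 10 genes in every library, at 828, 912 and 1156 CPM in fat and 1065, 1453 and 3182 CPM in islets. Islet library 2 fell inside the fat range, and islet library 6 was the highest. The log2 difference of 0.98 ± 0.43 (SE) was not called (edgeR adjusted p = 0.154), and it passed only without islet libraries 2 and 4 together (1.64, adjusted p = 8.38e-05), a fit in which the lone islet library takes its spread from fat. Without islet library 6 the log2 difference was 0.37 (adjusted p = 0.282). Tgfbi is at chr13:56609523-56639562 on the plus strand (GRCm38).

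**Figure D3:**
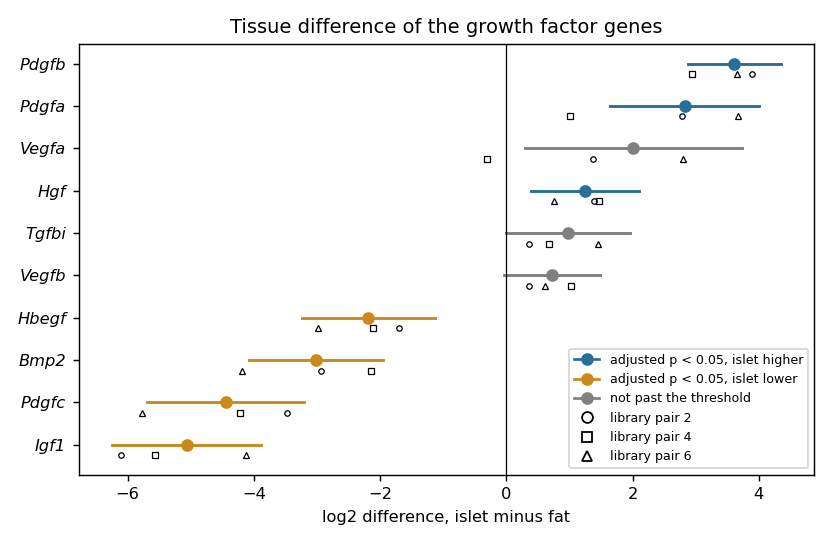
Fitted islet minus fat difference of the 10 genes on the log2 scale, with 95% intervals not adjusted for multiple tests (filled points and lines), from edgeR, and log2 ratios of same-numbered libraries (open symbols). Differences run from Igf1 at -5.06 to Pdgfb at 3.61, and the 3 genes not called (Vegfa, Vegfb and Tgfbi) are in grey.

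Within the same numbers, 9 of the 10 genes differed in the same direction in all 3 pairs of islet and fat libraries. The exception was Vegfa, with log2 ratios of 1.38, -0.31 and 2.79 in numbers 2, 4 and 6 (a pseudocount of 0.5 CPM was added). In islets, Pdgfa, Vegfa and Tgfbi were highest and Pdgfc, Hbegf and Bmp2 lowest in library 6, the islet library with the least heat shock RNA, though more than fat. These 6 genes therefore differed by more when islet libraries 2 and 4 were left out, with log2 differences of 3.44, 3.02, 1.64, -6.36, -3.58 and -4.39 in the order named. Igf1 (-4.29), Pdgfb (3.61), Vegfb (0.41) and Hgf (0.86) did not grow in this fit. The part of heat shock in these levels was not tested.

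Levels per kilobase of merged exons put the genes in a different order in each tissue. In fat macrophages the order was Tgfbi (256 ± 45.2 CPM per kilobase, mean ± SD, n = 3), Igf1 (43.5 ± 1.55), Pdgfc (16.7 ± 1.72), Bmp2 (16.6 ± 0.782), Vegfb (10.5 ± 1.42), Hbegf (8.54 ± 1.61), Vegfa (3.10 ± 0.768), Pdgfb (2.85 ± 0.135), Pdgfa (2.40 ± 0.404) and Hgf (1.36 ± 0.381). The ranges of Pdgfc and Bmp2, of Vegfb and Hbegf, of Vegfa and Pdgfb, and of Pdgfb and Pdgfa overlapped, while the other neighbours in this order were separate. In islet macrophages the order was Tgfbi (504 ± 299), Pdgfb (34.9 ± 12.2), Vegfb (17.5 ± 6.60), Pdgfa (16.9 ± 10.9), Vegfa (12.4 ± 12.9), Hgf (3.23 ± 0.998), Bmp2 (2.12 ± 1.36), Hbegf (1.90 ± 1.07), Igf1 (1.28 ± 0.934) and Pdgfc (0.794 ± 0.536). Among the islet neighbours the ranges were separate only between Tgfbi and Pdgfb. Igf1 was thus next to the top in fat and next to the bottom in islets. With the longest annotated transcript as the length, some neighbours exchanged places, such as Pdgfa (25.6) above Vegfb (21.9) in islets, and Tgfbi stayed first and Pdgfc last in islets.

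Other cell types were checked through marker lists, because the factors studied are also made outside macrophages. In islet libraries 2, 4 and 6, 0.664%, 0.430% and 0.292% of counts came from 10 beta cell markers, led by Ins2 and Ins1, against at most 0.000590% in fat. Other endocrine markers gave 0.125%, 0.0984% and 0.0827%. Acinar markers gave 0.000502%, 0.00831% and 0.00123%. Among the islet-high genes, Hgf ranked islet libraries 2, 4 and 6 in the order of the beta cell share (31.4, 19.2 and 18.9 CPM) and Vegfb followed the order of the acinar share (20.4, 40.1 and 23.7 CPM). Pdgfa, Vegfa and Tgfbi were highest in islet library 6, which had the lowest beta cell share. Ductal markers took 0.00335%, 0.000831% and 0.00688% of counts in islet libraries 2, 4 and 6, the same order as Pdgfa and Vegfa. In fat they took 0.00059% to 0.000967%. Of the 6 ductal markers, 2 were at 0 in islets. Every islet library was above every fat library in 1 of them and below in 3. Mesothelial markers took 0.00608%, 0.00201% and 0.00429% in islet libraries 2, 4 and 6, against 0.000274% to 0.00221% in fat. Their islet order was that of Pdgfb (191, 91.2 and 153 CPM). Of the 7 mesothelial markers, 4 were at 0 in islets. Every islet library was above every fat library in 1 of them and below in 3, so the islet sum does not stand for the whole list. The hormone genes Sst (69.95, 94.3 and 201 CPM) and Ppy (5.44, 29.8 and 57.7 CPM), both at 0 in fat, ranked the islet libraries as Tgfbi did. Tgfbi was not called, and both hormone genes were named after their values were seen. The summed list of other endocrine markers, which holds both, ran in the opposite order (0.125%, 0.0984% and 0.0827%). With so few islet libraries only a few orders are possible, so some shared orders are bound to occur among many lists and markers. The shared orders carry no test, and the part of these cells in the levels was not tested.

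Fat libraries held more stromal RNA than islet libraries. Fibroblast markers, led by Col3a1 and Dcn, took 0.0442%, 0.0320% and 0.00999% of counts in fat libraries 2, 4 and 6 and at most 0.000274% in islets, where 6 of the 8 markers were at 0. Endothelial markers took 0.0218%, 0.00769% and 0.00439% in fat and 0.000611% to 0.00243% in islets, with 3 of 10 at 0 in islets. Pericyte and smooth muscle markers took 0.0247%, 0.00634% and 0.00365% in fat and 0.000553% to 0.00178% in islets, with 2 of 8 at 0 in islets. Adipocyte markers took 0.00422% to 0.00792% in fat and 0.00116% to 0.00229% in islets, with 6 of 7 at 0 in islets. These 4 lists differed widely between fat libraries: fat library 6 held 23.3% of the fibroblast, 20.7% of the endothelial, 15.2% of the pericyte and 55.0% of the adipocyte level of fat library 2. In the same library Igf1 stood at 95.2%, Pdgfc at 112%, Bmp2 at 108% and Hbegf at 69.7% of their level in fat library 2. The part of stromal cells in Igf1, Pdgfc, Bmp2 and Hbegf was not tested.

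**Figure D4:**
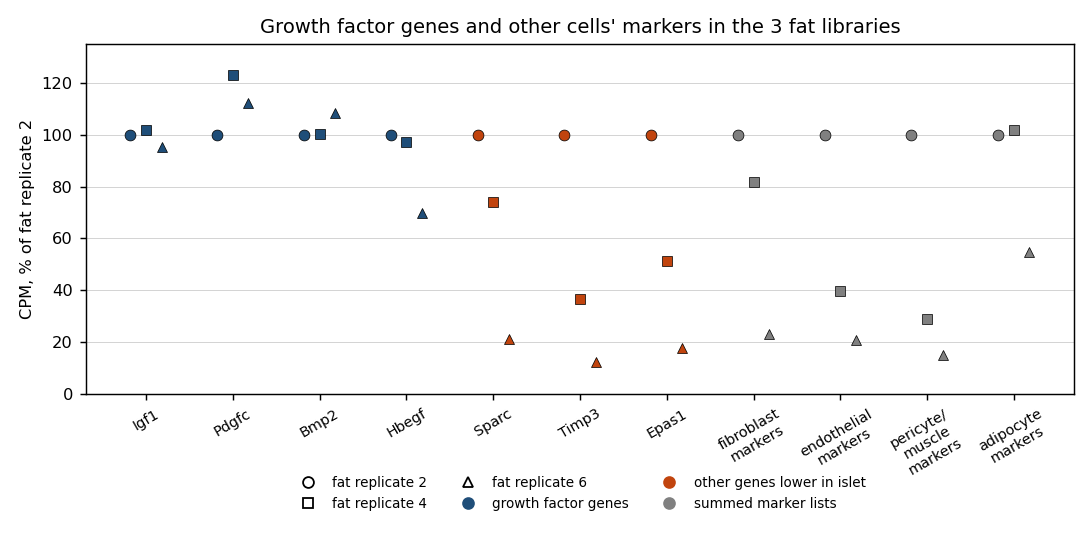
Level in each fat library as a percentage of fat library 2, for Igf1, Pdgfc, Bmp2 and Hbegf, for Sparc, Timp3 and Epas1 as other genes lower in islets, and for 4 summed marker lists. In fat library 6 Igf1, Pdgfc and Bmp2 are at 95.2% to 112% and Hbegf is at 69.7%. The fibroblast, endothelial and pericyte lists are at 15.2% to 23.3% and the adipocyte list is at 55.0%.

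Markers of other leukocytes took small shares of counts in both tissues. T and NK cell, neutrophil, and eosinophil and mast cell lists took at most 0.000811% of counts in any library. B cell markers took 0.0191% to 0.0269% in fat and 0.00407% to 0.0189% in islets, and dendritic cell markers 0.0119% to 0.0136% in fat and 0.0146% to 0.0242% in islets. Mesothelial and ductal lists took at most 0.00688% in any library. The 10 macrophage markers took 0.779% to 0.940% in fat and 0.521% to 0.642% in islets. The most abundant of them in fat, Lyz2, was at 3084, 4304 and 3690 CPM in fat and 1616, 1753 and 1052 CPM in islets. Every islet library was above every fat library in 3 of the 10 (Ptprc, Fcgr1 and Spi1) and below in 3 (Lyz2, Mertk and Itgam). By edgeR the latter 3 were called lower and the other 7 were not called.

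The other growth factor ligands were mostly too low to test. Of 48 listed ligands 14 were tested, with a median log2 difference of 0.43. By edgeR 3 were lower in islets and 0 higher, 21.4% in all, against 19.4% of all genes tested. At an unadjusted p under 0.05, 2 were higher by edgeR, and DESeq2 and limma voom each called 1. Kitl, the ligand of the receptor Kit, was lower in islets, at 18.04 ± 8.08 CPM (SD, n = 3) against 106 ± 16.7 in fat, a log2 difference of -2.56 ± 0.35 (SE; adjusted p = 0.00158). Nrg2, a neuregulin that acts on ERBB receptors, had 3 counts in all islet libraries and 434 in fat, a ratio of 86.3 (counting interval 29.3 to 420). Grn, which encodes progranulin, was lower by 1.07 ± 0.30 on the log2 scale (adjusted p = 0.0358). Leaving out any 1 library other than islet library 6 ended its call (adjusted p = 0.0652 to 0.144). Tgfb1, the ligand after which Tgfbi was named, stood at 227 to 235 CPM in fat and 208 to 284 CPM in islets and was not called (log2 difference 0.11 ± 0.23, adjusted p = 0.795).

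Among receptors, binding proteins and antagonists, 32 of 47 listed genes were tested, of which 5 were higher and 11 lower in islets. The median log2 difference was -1.15, against 0.006 over all genes tested. Higher were Smad7, an inhibitor of TGF-β and BMP signalling, at 89.2 ± 18.7 CPM (SD, n = 3) against 4.47 ± 0.744 (log2 difference 4.32 ± 0.30 SE, adjusted p = 8.81e-05), and the αv and β5 integrin genes Itgav (3.17 ± 0.35, adjusted p = 5.31e-04) and Itgb5 (3.76 ± 0.41, adjusted p = 5.33e-04), whose products can bind latent TGF-β. Twsg1, a BMP-binding protein, was also higher (1.91 ± 0.36, adjusted p = 0.00705). Met, the HGF receptor, was at 1.70, 0.531 and 1.41 CPM in fat and 11.5, 10.3 and 82.3 CPM in islets. Its islet level was higher in all libraries and far highest in library 6 (log2 difference 4.80 ± 0.94, edgeR adjusted p = 0.00812, limma voom adjusted p = 0.0560), and without library 6 the log2 difference was 3.12.

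Genes of this list that were lower in islets included receptors, co-receptors and a binding protein. Igf1r, the IGF-1 receptor, was at 92.4, 78.7 and 86.1 CPM in fat and 25.8, 18.9 and 57.4 CPM in islets (log2 difference -1.32 ± 0.39, adjusted p = 0.0468), a call lost when any 1 library other than islet library 6 was left out (adjusted p = 0.0659 to 0.150), while without islet library 6 the log2 difference was -1.94. Insr, the insulin receptor, was lower by 2.43 ± 0.28 on the log2 scale (adjusted p = 6.68e-04). Igfbp4, which binds IGF-1, was at 582 ± 60.5 CPM in fat and 20.2 ± 14.8 CPM in islets (SD, n = 3; log2 difference -4.87 ± 0.52, adjusted p = 4.67e-04; -5.64 without islet library 4). Egfr, the receptor for HB-EGF, was at 198, 190 and 179 CPM in fat and 0.202, 0.860 and 6.74 CPM in islets (log2 difference -6.01 ± 0.82, adjusted p = 0.00155). All its fat values were within a narrow range while the islet values were near 0 in libraries 2 and 4, and without islet library 6 the log2 difference was -8.58. Eng (endoglin) and the VEGF co-receptor Nrp1 were also lower, by 2.47 ± 0.37 and 1.502 ± 0.37 on the log2 scale (adjusted p = 0.00232 and 0.0218), and Nrp1 missed the threshold without any 1 fat library or islet library 2 (adjusted p = 0.0681 to 0.0807). Nrp2 was at 296, 247 and 333 CPM in fat and 33.9, 8.03 and 399 CPM in islets, with islet library 6 alone at the fat level, and was not called (log2 difference -0.98 ± 1.05, adjusted p = 0.568). Without islet library 6 it was lower by 3.77 on the log2 scale (adjusted p = 6.39e-04).

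The receptors of PDGF and VEGF themselves were low in both tissues. Pdgfra had 0 counts in islets and 5.20, 9.69 and 2.82 CPM in fat, at least 9.48-fold lower in islets when each islet library is set to 3 counts (adjusted p = 0.00881, 0.0600 without fat library 4). Pdgfrb was at 20.99, 5.17 and 2.12 CPM in fat and 1.21 to 2.02 CPM in islets (adjusted p = 0.0859). Flt1 and Kdr, the VEGF receptors 1 and 2, were at 6.12 to 29.0 and 2.12 to 26.6 CPM in fat and 3.23 to 6.59 and 0.573 to 8.08 CPM in islets and were not called (adjusted p = 0.0625 and 0.298). With no filter on low counts Pdgfrb, Flt1 and Kdr passed (adjusted p = 0.00593, 0.00281 and 0.0202), and with DESeq2 Pdgfrb and Flt1 passed (adjusted p = 0.0243 and 0.0172). Flt1 also passed without fat library 6 or islet library 4 (adjusted p = 0.0412 and 0.0471). Without fat library 2 the log2 differences of Pdgfrb, Flt1 and Kdr were -1.07, -1.21 and -0.90, against -2.43, -1.91 and -1.55. Pdgfrb, Flt1 and Kdr were highest in fat library 2, as were the pericyte and endothelial markers, and the part of those cells was not tested. Pdgfra was highest in fat library 4, as was the fibroblast marker Dcn (72.7, 92.7 and 16.8 CPM in fat libraries 2, 4 and 6). The fibroblast marker Col3a1 was highest in fat library 2 (174, 120 and 39.8 CPM). The part of fibroblasts in Pdgfra was not tested. Bmpr2, a type II BMP receptor, was at 136 to 150 CPM in fat and 162 to 188 CPM in islets (adjusted p = 0.459).

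Proteases and their inhibitors, which release or activate several of the 10 factors, were called in both directions. Of 32 listed genes 22 were tested, 8 were higher and 4 lower in islets, with a median log2 difference of 0.69. In all 54.55% were called, against 19.4% of all genes tested. Plau, the urokinase that can activate HGF and the plasmin system, was at 84.3, 92.3 and 76.6 CPM in fat and 1096, 350 and 804 CPM in islets (log2 difference 3.15 ± 0.42, adjusted p = 0.00151). St14 (matriptase) was higher by 3.13 ± 0.69 (adjusted p = 0.0136; 0.0760 and 0.0637 without fat library 2 and 6). Spint1, an inhibitor of the HGF-activating proteases, had 0 counts in all fat libraries and was at 37.1, 53.9 and 59.0 CPM in islets, at least 145-fold higher when each fat library is set to 3 counts (adjusted p = 1.36e-04). Mmp14, a membrane-bound matrix protease, was at 10.9, 8.89 and 7.06 CPM in fat and 345, 222 and 1319 CPM in islets (log2 difference 6.13 ± 0.74, adjusted p = 9.21e-04; 4.97 without islet library 6). Thus the islet libraries carried more RNA of genes on both the activating and the inhibiting side.

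Adam17, the main sheddase of HB-EGF, was higher in islets (107 ± 4.95 against 387 ± 104 CPM, SD, n = 3; log2 difference 1.86 ± 0.28, adjusted p = 0.00244). Cd9, a tetraspanin that associates with pro-HB-EGF, was higher by 2.34 ± 0.27 (adjusted p = 6.94e-04). Both differed in the opposite direction to Hbegf. Adam9 was lower by 1.25 ± 0.24 (adjusted p = 0.00763) and Adam10 was not called by edgeR (0.88 ± 0.27, adjusted p = 0.0522) but was by DESeq2 and limma voom (adjusted p = 0.0221 and 0.0398). Pappa2, a protease of IGF-binding proteins, rose from at most 0.378 CPM in fat to 27.0, 8.89 and 3.91 CPM in islets (log2 difference 5.601 ± 1.03, adjusted p = 0.00643; 4.55 without islet library 2). Furin, a proprotein convertase, was not called (0.57 ± 0.36, adjusted p = 0.317), except without islet libraries 2 and 4 (adjusted p = 0.00499).

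Mmp9, a gelatinase known to release matrix-bound VEGF, was at 190, 298 and 252 CPM in fat and had 2 counts in all islet libraries, a ratio of 1908 (counting interval 528 to 15760). Hpse (heparanase) was lower by 4.499 ± 0.79 (adjusted p = 0.00499; log2 difference -6.21 without islet library 4). Timp3 was at 87.2, 32.1 and 10.6 CPM in fat and 0 to 5.52 CPM in islets (log2 difference -4.19 ± 1.10, adjusted p = 0.0288; 0.0848 with the replicate block, 0.121 with limma voom, 0.0573 to 0.147 without fat library 2 or 4 or islet library 2 or 4, and 0.357 without islet libraries 2 and 4). Its log2 difference was -3.23 without fat library 2 and -6.84 without islet library 6. Sparc, a matrix protein that binds PDGF and VEGF, was lower by 4.18 ± 0.69 (adjusted p = 0.00385, 0.146 without islet libraries 2 and 4; log2 difference -4.79 without islet library 4). Timp3 and Sparc were lowest in fat library 6, at 12.2% and 21.2% of fat library 2, as the stromal lists were, and the part of stromal cells was not tested.

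**Figure D5:**
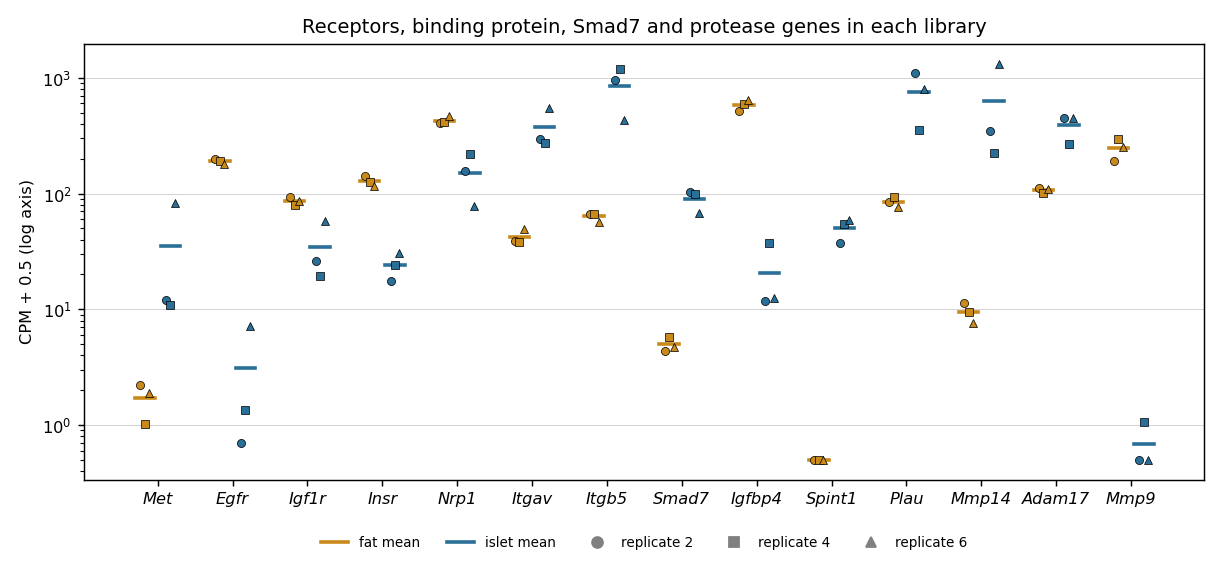
CPM plus 0.5 in every library, on a log axis, for receptors, a binding protein, Smad7, proteases and a protease inhibitor, with fat and islet libraries in separate colours, marker shapes for libraries and bars for means. Met, Plau and Mmp14 are higher in all 3 islet libraries, and Igfbp4 and Egfr are lower in all 3.

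Genes of oxygen sensing were examined because Vegfa is a classical target of hypoxia-inducible factors. Of 23 listed genes 21 were tested, 3 were higher and 2 lower in islets, 23.8% in all, against 19.4% of all genes tested. The median log2 difference of the list was 0.04. Slc2a1, the glucose transporter GLUT1, was at 3.03, 3.18 and 5.41 CPM in fat and 109, 41.3 and 45.5 CPM in islets (log2 difference 4.07 ± 0.48, adjusted p = 8.14e-04; 3.48 without islet library 2). Among the called genes of the list, the islet maximum was in library 2 for Slc2a1 and P4ha1 and in library 4 for Vhl and Arnt. Epas1 had it in library 6, as Vegfa did. Of the tested genes that were not called, Hif1a, Egln1, Hif1an, Pgk1, Ldha, Pfkfb3, Adm, Ndrg1, P4ha2 and Hk2 also had it in library 6. Egln2 and Ero1l had it in library 2, and Bnip3, Pdk1, Car9 and Ddit4 in library 4. The part of hypoxia in the level of Vegfa was not tested. Vhl, which marks hypoxia-inducible factors for degradation, was higher by 2.60 ± 0.43 (adjusted p = 0.00374). P4ha1, a prolyl hydroxylase for collagen, was higher by 1.30 ± 0.34 (adjusted p = 0.0287), a call lost without any 1 fat library, without islet library 2, and without islet libraries 2 and 4 (adjusted p = 0.0854 to 0.182). Hif1a was not called (0.53 ± 0.26, adjusted p = 0.200), except without islet libraries 2 and 4 (adjusted p = 0.0170). Arnt and Epas1 (HIF-2α) were lower by 0.82 ± 0.21 and 2.88 ± 0.75 (adjusted p = 0.0260 and 0.0279), and neither passed with the replicate block (adjusted p = 0.0605 and 0.0677) or without fat library 2 or 4 or islet library 2, nor did Arnt pass without fat library 6 (adjusted p = 0.0913) or Epas1 without islet library 4 (adjusted p = 0.0515). Epas1 also missed with limma voom (adjusted p = 0.0875) and without islet libraries 2 and 4 (adjusted p = 0.400). Its log2 difference was -2.20 without fat library 2 and -3.91 without islet library 6, and within fat it stood in library 6 at 17.6% of its level in library 2.

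Promoter windows from 250 bases before to 50 bases after annotated starts (RefSeq, GRCm38.p6) were found for 7 of the 10 genes, 10 windows in all: Igf1, Pdgfa, Pdgfc, Vegfa, Vegfb, Hgf and Tgfbi. They are shown for a pair of genes lower in islets (Igf1 and Pdgfc), for Pdgfa as a gene higher there, and for Vegfa as the most variable one, so that letters can be set beside levels. Each reads 5′ to 3′ on the gene's strand, with motif matches in capitals. The Pdgfc stretch (chr3:81036166-81036415, plus strand) covers the 250 bases before the start and holds a match to TGACNNNGC, the core of antioxidant response elements. The Vegfa stretch (chr17:46032378-46032627, minus strand) covers the 250 bases before the start and holds 2 GC boxes (GGGCGG). The Igf1 stretch (chr10:87861064-87861090, plus strand) holds a match to TGANTCA. This is a loosened form of the AP-1 motif that allows any central base, here A. The Pdgfa stretch (chr5:138995018-138995047, minus strand) holds 2 GC boxes on the opposite strand, read here as CCGCCC.

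Pdgfc: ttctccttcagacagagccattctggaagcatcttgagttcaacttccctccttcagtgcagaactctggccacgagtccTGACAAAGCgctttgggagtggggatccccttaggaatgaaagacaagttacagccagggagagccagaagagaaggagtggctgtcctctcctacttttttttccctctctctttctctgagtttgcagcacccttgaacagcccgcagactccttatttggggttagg
Vegfa: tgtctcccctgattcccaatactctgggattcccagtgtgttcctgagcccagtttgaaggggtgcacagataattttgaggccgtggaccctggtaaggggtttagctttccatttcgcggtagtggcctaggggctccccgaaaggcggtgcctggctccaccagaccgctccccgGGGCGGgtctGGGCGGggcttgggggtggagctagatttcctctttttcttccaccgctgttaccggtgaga
Igf1: agctggaactTGAATCActattctgga
Pdgfa: agcccagcccCCGCCCtCCGCCCcttccgt

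Each motif was searched on both strands of all 32851 windows. GGGCGG occurred in 35.7% of all windows and in 6 of the 10 windows of these genes (Pdgfa, Vegfa, Vegfb and Tgfbi), none of them of Igf1, Pdgfc or Hgf. TGANTCA occurred in 7.81% of all windows and in 1 of the 10, that of Igf1. TGACNNNGC, which overlaps TGANTCA when followed by GC, occurred in 12.4% of all windows and in 3 of the 10 (Hgf, Pdgfa and Pdgfc). The hypoxia response cores ACGTG and GCGTG occurred in 19.6% and 32.4% of all windows and in 1 (Vegfa) and 6 of the 10. TATAAA, TGACGTCA and GAGGAAGT, found in 13.6%, 1.79% and 3.2% of all windows, were in none of the 10. Genes higher and lower in islets thus shared TGACNNNGC, and these are matches of letters and not measured sites.

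For each of the 10 genes, the genes with the most similar log2 CPM over the 6 libraries were listed from 4376 genes whose log2 CPM averaged 5 or more. All 6 libraries share the tissue difference, so high correlations are common: between 10 genes (Vegfb) and 248 genes (Pdgfb) had r above 0.95 with a given member. Closest to Igf1 were Colec12 (r = 0.999), a scavenger receptor, and Man1a (0.999). Closest to Pdgfb were Stap1 (0.999) and Fgd3 (0.998), to Pdgfa Mxd1 (0.999) and Bcl2a1d (0.998), and to Pdgfc Fxyd2 (0.9995) and C1qtnf1 (0.998). Vegfa was closest to Sod2 (0.997), the mitochondrial superoxide dismutase, and to Wdr33 (0.991). Sod2 shared the peak of Vegfa in islet library 6, at 119, 49.0 and 240 CPM in islet libraries 2, 4 and 6. Closest to Vegfb was Nedd8 (0.984), and closest to Hgf were Csf3r (0.991), the receptor for G-CSF, and Rc3h1 (0.989). Hbegf was closest to Map3k8 (0.997), a kinase of inflammatory signalling, and Clk1 (0.995). Bmp2 was closest to Dok2 (0.997) and Wdr11 (0.996), and Tgfbi to Map2k2 (0.993) and Adprh (0.990).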

How the data were processed

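Macrophage RNA from islets and fat was sequenced from strand-specific total RNA libraries, 3 per tissue. The authors deposited raw, whole-number counts for each gene. STAR, featureCounts, Subread 1.6.4 and GRCm38 are named per the submitters' processing notes, and the sources used here give neither the annotation nor the strand setting. Counts were tested in R 4.3.3 with edgeR 4.0.16: filterByExpr, TMM scaling, robust quasi-likelihood fit, tissue as the only term, islet minus fat, Benjamini-Hochberg adjustment over 12152 genes and a threshold of 0.05. SE is the log2 difference divided by the root of F. CPM values use TMM-adjusted library sizes. Lengths and overlaps come from GENCODE M21, which held 50376 of 50600 identifiers. The fit was tested on simulated data.

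The 10 genes and all lists were chosen with earlier results of these data known. Named by rule were the 10 genes, the 3 smallest adjusted p values per direction in 4 partner lists, the 3 most abundant stress genes and the 2 most similar genes per member, and from the marker lists those shown. Other names (Met, Igf1r, Nrp1, Nrp2, Pdgfra, Pdgfrb, Flt1, Kdr, Bmpr2, Eng, Twsg1, Tgfb1, Plau, Adam17, Adam10, St14, Furin, Pappa2, Sparc, Timp3, Hif1a, Fos, Jun, Atf3, Nr4a1, Egr1, Sst, Ppy) were chosen after values were seen. Some genes that were counted or that the rule takes are not reported here by name. The design's word autologous gives the pairing by number. Deviations from the tissue means correlated across genes at 0.053, 0.042 and -0.024 for the same numbers and at -0.144 to 0.104 for other numbers, so the counts do not show it. Alternatives were RLE and upper-quartile factors, other filters, the replicate block, protein-coding genes alone, no ribosomal RNA genes, DESeq2 1.42.0, limma 3.58.1 voom, and libraries left out. Counting intervals and floors (3 counts per library) cover counting error only.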

Additional observations from a re-analysis of the deposited data

How the results depend on the processing

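Igf1, Pdgfa, Pdgfb, Pdgfc and Bmp2 kept their calls in all 16 alternatives, with largest adjusted p values of 0.00316, 0.0418, 0.00361, 0.00653 and 0.0190. The number of the 10 genes called higher was 2 to 4 and lower 3 to 4. With the replicate block, Hgf (adjusted p = 0.0605), Arnt, Epas1 and Timp3 lost their calls and the oxygen-sensing list had 0 lower genes in place of 2. The block ended no other call among the 10 genes and the named partner genes. For the other ligands, 3 were higher and 6 lower with no filter, 1 was higher with the filter of 1 CPM, with DESeq2 and with limma voom, and 1 was higher and 6 lower without islet libraries 2 and 4. Receptors had 17 lower genes with no filter. Oxygen-sensing genes had 5 higher without islet libraries 2 and 4. With 1 library left out, lower calls ranged from 2 to 4 for other ligands, 6 to 14 for receptors, 3 to 7 for proteases (7 without islet library 6) and 0 to 2 for oxygen sensing, and higher ligand calls from 0 to 3, the 3 without islet library 6. Lower receptor calls were 6 and 7 without fat library 2 and 4. Lower oxygen-sensing calls were 0 without fat library 2 or 4 or islet library 2, and 1 without fat library 6. The log2 difference of Tgfb1 ranged from -0.003 (without islet library 4) to 0.21, and that of Nrp2 was 0.37 without islet libraries 2 and 4. The cause was not tested. With the longest transcript as length, 11 member levels per kilobase moved by more than their SD. Islet values of Pdgfc rest on as few as 8 counts.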
